A study of Rattus norvegicus with 4 samples.

Results

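The regions described here were tall peaks of CD44 chromatin immunoprecipitation sequencing (ChIP-seq) that rat nucleus pulposus cells showed both in serum and after serum withdrawal. A pileup is the number of sequenced fragments stacked at the highest point of a peak. Peaks were chosen by their pileup and length. A serum peak on chromosomes 1 to 20 needed a pileup of at least 30 and a length under 1000 bp. It also had to overlap, by at least 1 bp, a starved peak of pileup at least 8 that was itself shorter than 1000 bp. This gave 932 of the 289279 serum peaks and 933 of the 409937 starved peaks, in 937 pairs. Of the serum members, 5 had 2 starved partners, and 4 starved peaks had 2 serum partners. Positions are 1-based and given as in the lists, on the rat build Rnor_6.0.

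Nucleus pulposus cells are the cells of the gel-like core of the intervertebral disc. Both groups were cultures of these rat cells, one kept in 10% fetal bovine serum and the other in 0.1% (serum-starved). Each had 1 library precipitated with an anti-CD44 antibody and 1 library of input DNA, and the labels name no genotype, strain, age or passage. With 1 precipitated library per condition no difference between conditions has a replicate behind it, so all values describe these libraries and carry no p-value between them.

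CD44 is a transmembrane receptor that binds hyaluronan, a main polymer of the disc matrix. Its extracellular part can be shed by membrane proteases, after which its short intracellular domain can be released and enter the nucleus. There it has been studied as a partner of transcription factors such as RUNX2. A ChIP-seq peak is a stretch where more fragments pile up than the local background predicts. The background comes largely from the input, which can rise where many copies of a sequence are read as a single place.

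The members were a small, tall tail of both lists. Chromosomes 1 to 20 held 258987 serum peaks, of which 2309 reached a pileup of 30 and 2116 of those were shorter than 1000 bp. Of the 2116, 932 (44.0%) had a starved partner of pileup at least 8, 185 had only a weaker starved partner, and 999 had no starved partner under 1000 bp. Among those 999, 663 overlapped a starved peak of 1000 bp or longer, of any pileup, which the length limit keeps out. Over serum peaks of any pileup and under 1000 bp, 1.68% had a starved partner of pileup at least 8. The share grew with serum pileup, from 0.597% at 4 to 9 fragments and 26.8% at 20 to 29, to 37.3% at 30 to 39 and 61.3% (exact 95% binomial interval 52.6 to 69.5, n = 137) at 100 or more. From the starved side, the 933 partners were 4.53% of the 20610 starved peaks of pileup at least 8 on these chromosomes. These shares follow in part from the rule and are given as a description.

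Serum peaks just inside and just outside the limit of 30 were as follows. Exactly 30 fragments were stacked in 53 members, out of 151 serum peaks at that height. At 29 fragments, 55 of 159 serum peaks had a starved partner of the same kind. The median fold enrichment was 3.20 at 30 fragments and 3.99 at 29. The first members at 30 by position lay at chr1:59452863-59453492, with a fold enrichment of 3.03 and 13 starved fragments, and at chr1:202757860, with 4.44 and 17. The first outside, at 29, lay at chr1:37676372, with 3.64 and 8, and at chr1:111061373, with 3.28 and 8. The lower limit on the starved side was met exactly by 48 pairs.

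Height and enrichment were different properties of these peaks. The fold enrichment in the deposited lists is (pileup + 1) divided by (local background + 1), and it was the authors' own value for each peak. Serum members had a median pileup of 44 fragments (quartiles 35 and 60.25, highest 250) and a median fold enrichment of 3.37 (quartiles 2.17 and 5.02, highest 22.0). Of the 932, 234 (25.1%) had a fold enrichment of at least 5 and 44 (4.72%) of at least 10, while 203 (21.8%) were under 2. Their starved partners had a median pileup of 16 (quartiles 12 and 22, highest 136) and a median fold enrichment of 9.18 (quartiles 5.75 and 12.7, highest 67.0). Of these 933, 404 (43.3%) reached 10-fold and 3 were under 2. Fold enrichments of the lists rest on different backgrounds, so only their ranks, not their sizes, were compared.

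Among the 932 members, height and enrichment in serum picked largely different peaks. Of the 100 members with the highest serum pileup, 9 were also among the 100 with the highest serum fold enrichment. Unrelated rankings of 932 members would give about as many. The serum pileup is part of the serum fold enrichment by formula, and members were selected on it. That number therefore cannot show whether height and enrichment are related. Of the 100 members with the highest serum pileup, 31 were among the 100 with the highest starved pileup. The fold enrichments ranked more alike in both lists, with 46 of the 100 highest in common. Over the 937 pairs Spearman's rho between the lists was 0.71 for fold enrichment, 0.33 for pileup and 0.15 for length. The local background is part of the fold enrichment by formula, and its own rho was 0.88. How much of the likeness in fold enrichment comes from the background was not tested. Pairs share their place in the genome and were selected on both pileups, so these coefficients describe the pairs only.

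A q of at most 0.05 was reached by 846 serum members (90.8%, interval 88.7 to 92.6), against 19.3% of all serum peaks under 1000 bp on these chromosomes. In the starved list 919 of 933 partners did so (98.5%, interval 97.5 to 99.2), against 51.1% of all starved peaks of this kind. The pileup limits make high shares likely, so nothing further is read from them. The 86 serum members above 0.05 were not low peaks. Their pileups ran from 30 to 196 with a median of 59, but their median fold enrichment was 1.47 and none exceeded 1.98, on a background with a median of 27.5 times the lowest of the list. Their starved partners had a median fold enrichment of 4.51.

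Almost every member stood on a raised local background. The background of a peak was computed from the authors' pileup and fold enrichment. It was called raised above 2 times the lowest of its list, which was 1.502 fragments in serum and 0.0996 in starved. A raised background was found for 900 of 932 serum members (96.6%, interval 95.2 to 97.6), against 9.12% of all serum peaks under 1000 bp. This was a property of tall serum peaks in general, of which 98.1% (2076 of 2116) had it. Of the 40 tall serum peaks without it, 32 (80%, interval 64.4 to 90.9) were members, against 44.0% of all 2116. At higher backgrounds the share did not fall steadily. It was 45.3% from 2 to 5 times the lowest, 44.2% from 5 to 10, 34.6% from 10 to 20 and 50.3% above 20. These shares count no starved partner of 1000 bp or longer. In the starved list 909 of 933 partners (97.4%, interval 96.2 to 98.3) had a raised background. The share was 24.5% over all starved peaks under 1000 bp and 33.8% over the 20610 with a pileup of at least 8. The median background of the members was 7.60 times the lowest in serum (quartiles 5.07 and 14.8, highest 104) and 7.81 times in starved (quartiles 4.97 and 14.2, highest 90.8). How far reads that map to several places contribute to this background was not tested.

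The relative background of a pair was nearly the same in both lists. The starved value divided by the serum value had a median of 0.980 (quartiles 0.799 and 1.25), and 722 of 937 pairs (77.1%) agreed within 1.5 times. Spearman's rho was 0.88 over the 937 pairs. Both backgrounds were raised in 898 pairs, only the serum one in 7, only the starved one in 15, and neither in 17. The widest gap was at chr1:180896218-180896663, where the background was 14.5 times the lowest in serum and 86.2 times in starved. The next was at chr1:181210958-181211429, with 18.8 and 78.4 times.

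**Figure D1:**
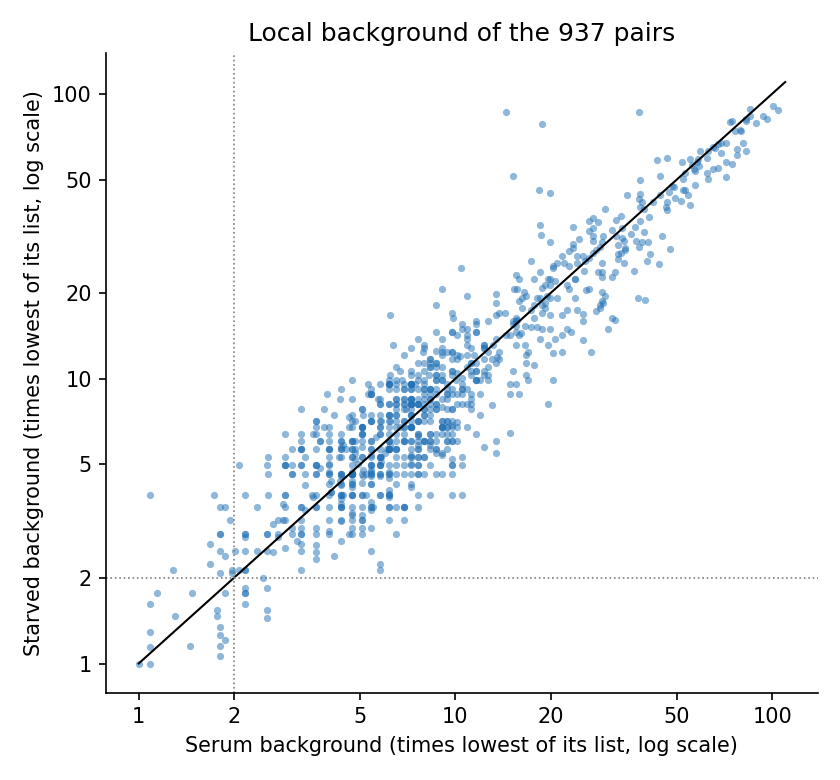
Local background of each of the 937 pairs, in multiples of the lowest background of its list, serum on the horizontal and starved on the vertical axis (both log scales). The solid line marks equal values and the dotted lines the limit of 2. Points follow the line of equal values from about 2 upward, and 17 pairs lie below 2 on both axes.

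The background took discrete values, as a scaled count of input fragments would. A common step was sought in each list within a set range of fractions of its lowest background. The step with the largest share of whole multiples was kept. Among peaks above 4 times the lowest, 87.8% of serum and 85.7% of starved backgrounds lay within 0.05 of a whole multiple of it. An even spread would give 10% at a step fixed beforehand, and a share picked as the largest can be higher. The step was 0.544 fragments for serum and 0.0353 for starved peaks. If the step is taken as 1 input fragment in a window as long as a fragment, the lowest background corresponds to 2.76 input fragments in serum and 2.82 in starved. The median member then stood on 21 input fragments in serum and 22 in starved, with a lower quartile of 14 in each. On this reading the backgrounds of both lists rested on similar numbers of input fragments, although the lowest backgrounds themselves differed 15.1-fold. The range searched for the step bounds the number for the lowest background alike in both lists, and the member numbers use the same steps. The likeness is therefore not read as a result.

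The tallest serum members had high backgrounds and low fold enrichments. The 10 tallest had serum pileups of 180 to 250 and fold enrichments that began at 1.29 and all lay under 2, on backgrounds of 67.7 to 104 times the lowest. Their starved partners had pileups of 16 to 44 and fold enrichments of 2.03 to 4.73, on backgrounds of 55.0 to 90.8 times the lowest. The tallest lay at chr18:38497622-38497921, with 250 fragments in serum (exact 95% Poisson interval 220 to 283) and 43 in starved (31.1 to 57.9). Its −log10 q was 7.66 in serum and 13.3 in starved. The second lay on the same chromosome at chr18:38414904-38415449, with 225 and 39 fragments. Next came chr12:5553250-5553607 (218 and 23) and chr12:1511969-1512447 (215 and 28). Of the 10, 5 lay on chromosome 1 within 3 Mb from the 180 Mb position, among them chr1:181188012-181188489 (204 and 16) and chr1:181008513-181008951 (196 and 44). The latter had a serum fold enrichment of 1.29 and a −log10 q of 1.15. The last was on chromosome 2 at chr2:158851401-158852052 (192 and 16).

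None of these 10 was among the 10 pairs tallest in the starved list, most of which had lower serum backgrounds and higher serum fold enrichments. The starved-tall pairs had starved pileups of 50 to 136 and starved fold enrichments of 17.8 to 67.0, on a median starved background of 5.14 times the lowest. Their serum pileups ran from 44 to 159, with a median serum fold enrichment of 9.52. The highest starved pileup, 136 fragments (interval 114 to 161), was at chr14:46647098-46647688. Its serum partner had 159 fragments and a fold enrichment of 1.47. In fragments, the local background of this pair was 107.7 in serum and 6.68 in starved. At chr6:30634798-30635480 the starved pileup was 99 and the serum pileup 102, with serum and starved fold enrichments of 1.74 and 24.98. In both of these pairs the background was high in each list, at 71.7 and 67.1 times the lowest in the first and 38.7 and 30.2 times in the second, serum before starved.

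The other 8 starved-tall pairs had serum fold enrichments from 4.39 to 17.9. At chr10:48880972-48881895 the starved peak had 84 fragments and a fold enrichment of 67.0, and the serum peak inside it had 94 fragments and 12.6-fold. At chr10:63884048-63884698 there were 70 starved and 55 serum fragments, with 47.5-fold and 10.0-fold. At chr5:138324148-138325083 there were 56 and 62 fragments, and the serum peak was enriched 9.02-fold. The pair at chr14:64763494-64764401 had 50 starved and 148 serum fragments. Its serum −log10 q of 103.8 was the highest of all members. At chr9:62590459-62591077 the values were 54 and 106 fragments.

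**Figure D2:**
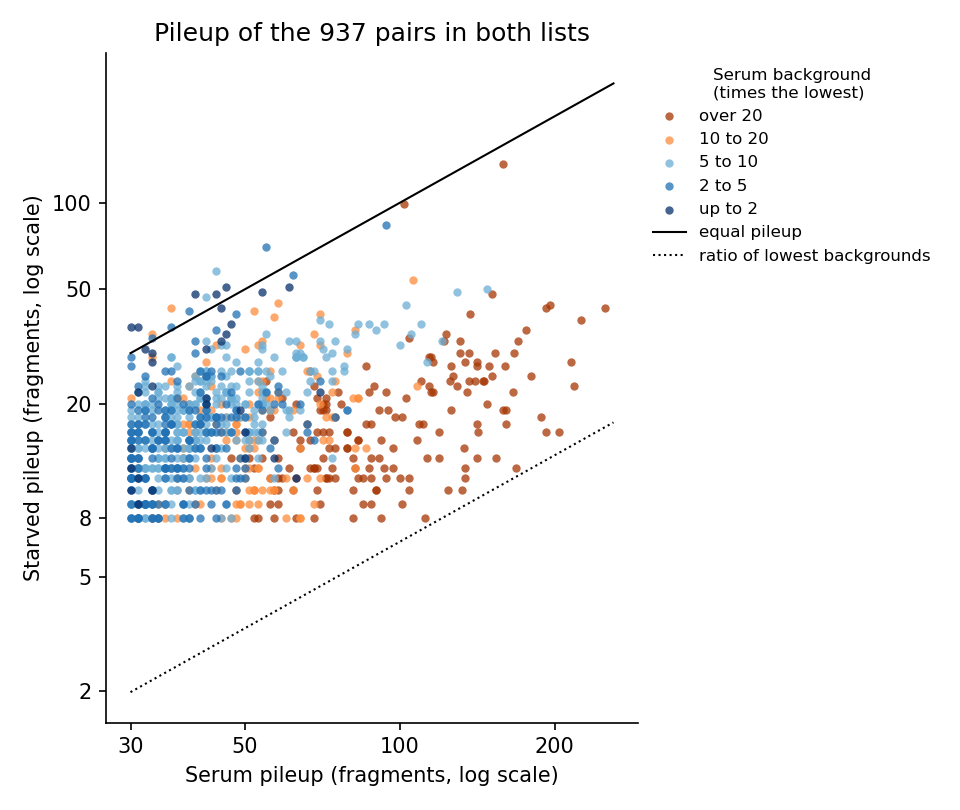
Pileup of each of the 937 pairs in fragments, serum on the horizontal and starved on the vertical axis (both log scales), coloured by the serum background in multiples of the lowest. The solid line marks equal pileups and the dotted line the ratio of the lowest backgrounds, 0.0663. All pairs lie above the dotted line, and 13 lie on or above the solid line, most of them with a background under 5 times the lowest.

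The ratio of starved to serum pileup differed between backgrounds, and whether it lay below or above 1 depended on the scale. In pileups as listed, its median was 0.353 (quartiles 0.248 and 0.467), against 0.0663 for the ratio of the lowest backgrounds. Divided by that ratio of 0.0663, the median became 5.32, and all 937 pairs lay above 1. The limits of 30 and 8 force this for most pairs, since only very tall serum peaks could have fallen below. It is therefore not read as a result. Read totals were not used, so neither scale gives a direction of change between the conditions. As listed, the starved pileup in 13 pairs (1.39%) was at least as high as the serum pileup. For 106 of 937 pairs the exact 95% interval of the ratio, which covers counting error only, included 1. By serum background the median ratio was 0.703 (exact 95% interval 0.355 to 0.848, 32 pairs) up to 2 times the lowest, 0.378 (0.352 to 0.400, 197 pairs) from 2 to 5, and 0.405 (0.389 to 0.427, 383 pairs) from 5 to 10. It was 0.306 (0.279 to 0.352, 155 pairs) from 10 to 20 and 0.178 (0.166 to 0.191, 170 pairs) above 20. The limits of 30 and 8 cut off low ratios unequally, at 0.190 for the median serum pileup of the first class and at 0.0879 for that of the last.

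The difference between the lowest and highest class was smaller in proportion once the background itself was taken off both pileups. The median ratio was then 0.488 over all pairs. It was 0.760 (interval 0.378 to 0.923) up to 2 times the lowest, 0.423 (0.402 to 0.460) from 2 to 5, 0.531 (0.509 to 0.555) from 5 to 10, 0.515 (0.453 to 0.560) from 10 to 20 and 0.369 (0.332 to 0.414) above 20. The class from 10 to 20 lay below that from 2 to 5 in pileups as listed and above it on this scale.

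**Figure D3:**
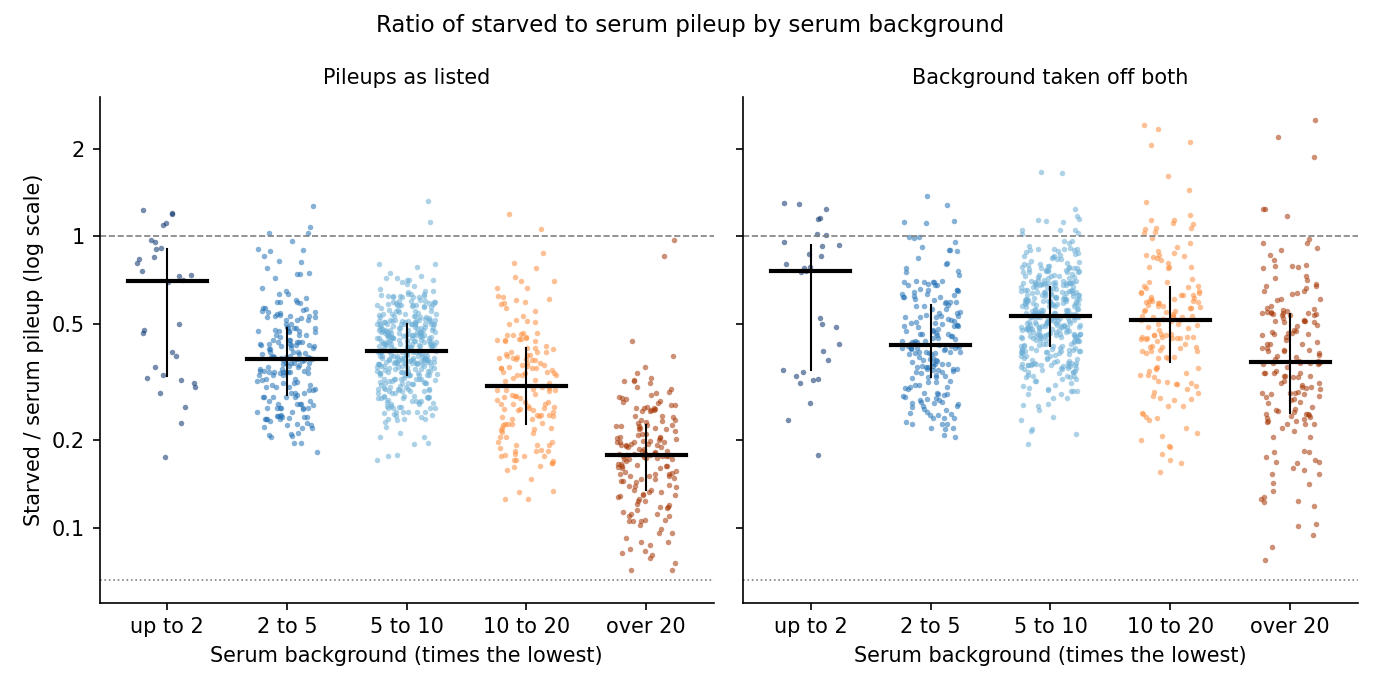
Ratio of starved to serum pileup for each of the 937 pairs (log scale), by serum background in multiples of the lowest. The left panel uses pileups as listed, and the right panel takes off the background of each list first. Thick bars are medians and thin bars quartiles, the dashed line marks 1 and the dotted line 0.0663. The medians on the left run from 0.703 to 0.178, and those on the right from 0.760 to 0.369.

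The highest and lowest ratios lay in different settings. The highest, 1.32 (interval 0.876 to 1.997), was at chr13:89873419-89873742 with 44 serum and 58 starved fragments, on backgrounds of 6.15 and 7.45 times the lowest. The next was chr10:63884343-63884722, at 1.27. Then came chr1:282147791-282148193 with 30 and 37 fragments (1.23) and chr4:81237985-81238646 with 40 and 48. The fifth, chr1:180896218-180896663 with 36 and 43 fragments (1.19), was also the pair of widest background gap. Every one of these 5 intervals included 1. The lowest ratio, 0.0714, was shared by chr2:160694287-160694815 (168 and 12 fragments, interval 0.0362 to 0.128) and chr20:27462835-27463180 (112 and 8, interval 0.0301 to 0.146). The next ratio, 0.0758, lay close to the latter at chr20:27460765-27461627 (132 and 10). The last of the 5 lay at chr1:181188012-181188489 (0.0784) and chr1:181197778-181198265 (0.0806). These 5 pairs had serum backgrounds of 43.8 to 67.7 times the lowest, and the intervals of all 5 ratios included 0.0663.

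A small set stood on a low background in both lists. The 17 pairs with at most 2 times the lowest in each (1.81% of pairs, interval 1.06 to 2.89) were on 10 of the 20 chromosomes. Their serum pileups ran from 30 to 70 (median 33) and their starved pileups from 9 to 51 (median 31). Fold enrichments ran from 8.60 to 22.0 in serum and from 8.82 to 45.5 in starved. High fold enrichment follows from the limits here, which allow none under 7.74 in serum and 7.51 in starved. The lowest −log10 q was 18.0 in serum and 12.1 in starved. The median ratio of starved to serum pileup was 0.761 (interval 0.467 to 0.956). In 3 of the 17 the starved pileup was the higher, and for 12 the interval of the ratio included 1.

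Only 1 pair of the 937 was at the lowest background of both lists. It lay at chr13:80784245-80784845, with 54 fragments in serum (Poisson interval 40.6 to 70.5) and 49 in starved (36.3 to 64.8). The peaks shared 601 bp, and their midpoints were 3 bp apart. At chr2:77632159-77632642 there were 46 serum and 51 starved fragments, and 45.3 kb before it, at chr2:77586864-77587231, there were 44 and 48. At chr5:37622161-37622565 the heights differed more, with 70 serum and 22 starved fragments (ratio 0.314, interval 0.185 to 0.514). The pair at chr14:83061918-83062439 had 61 and 51 fragments and fold enrichments of 16.3 and 38.4. Its starved background of 3.55 times the lowest kept it out of the 17. At chr6:37001888-37002599 there were 45 and 33 fragments, with fold enrichments of 15.6 and 29.7, and at chr7:75416075-75416424 there were 45 and 43.

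Some low-background members had another member nearby. On chromosome 1, members at chr1:78844623-78845353 (46 serum and 35 starved fragments) and chr1:78851375-78851780 (32 and 31) began 6752 bp apart. On chromosome 3, members at chr3:129783183-129783564 (33 and 30) and chr3:129787080-129787959 (33 and 23) began 3897 bp apart. Near the end of chromosome 1, 3 members lay within chr1:282142889-282148193. Their serum pileups were 31, 40 and 30 and their starved pileups 37, 30 and 37, and the last of them was among the 17. In all, 5 of the 17 had another member within 10 kb, against 242 of all 932 (26.0%). Genes at these places were not named, because an annotation of Rnor_6.0 was not used here.

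**Figure D4:**
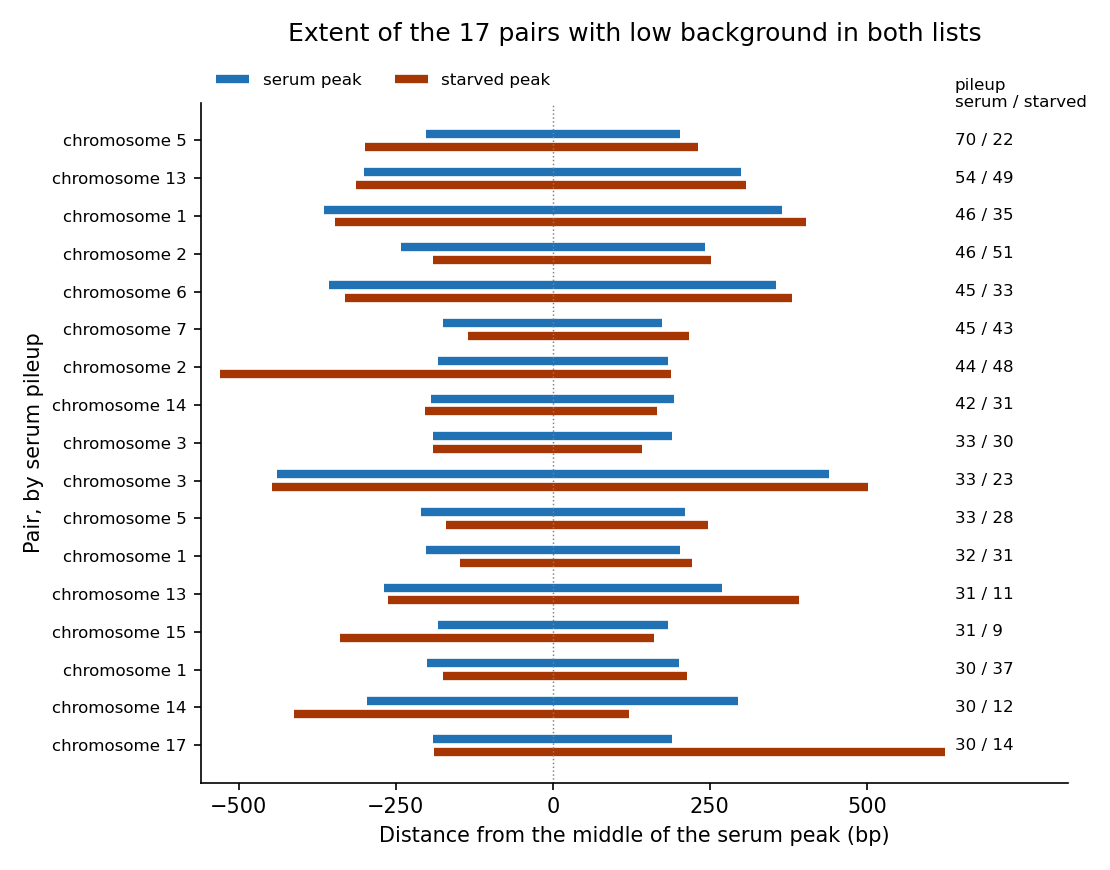
Extent of the serum peak (blue) and the starved peak (brown) of the 17 pairs with a background of at most 2 times the lowest in both lists, as distance in bp from the middle of the serum peak. Pairs are ordered by serum pileup, and the numbers at the right are the serum and starved pileups. The midpoints of the peaks lie 3 to 218 bp apart.

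The peaks of a pair mostly coincided closely, which follows in part from the rule. Pairs had to overlap, and the limit of 1000 bp bounds how far apart midpoints can lie. Over the 937 pairs the median overlap was 362 bp, and the median share of the shorter peak inside the overlap was 100% (lower quartile 90.9%). Midpoints were a median of 78 bp apart (quartiles 33 and 159 bp). They were within 100 bp in 554 pairs (59.1%) and over 300 bp apart in 52 (5.55%). The serum peak lay wholly inside the starved peak in 379 pairs (40.4%), and the reverse held in 95 (10.1%). The overlap was under 100 bp in 19 pairs, and at chr1:54890801-54891159 it was 1 bp. The lists give no summits, so the distance between highest points was not measured.

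Starved partners were mostly the longer peaks. Serum members had a median length of 420 bp (quartiles 349 and 533.5) and starved partners of 568 bp (quartiles 407 and 752), and the starved peak was longer in 652 pairs (69.6%). Over all peaks under 1000 bp on these chromosomes the order was the reverse, with medians of 347 bp in serum and 231 bp in starved. The starved partners were also longer than the 20610 starved peaks of pileup at least 8, whose median was 364 bp. The limit of 1000 bp bounds both lengths, and a rule of overlap favours longer peaks. The difference between the lists has no replicate.

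Members were spread over all 20 chromosomes, with dense stretches on a few. The density over chromosomes 1 to 20 was 0.356 per Mb, with the last peak end as the length of a chromosome. It ran from 0.173 per Mb on chromosome 8 (23 members, exact 95% Poisson interval 0.109 to 0.259) to 0.622 on chromosome 1 (176 members, interval 0.534 to 0.722). Chromosome 13 had 0.553 per Mb (63 members), chromosome 7 had 0.487 (71) and chromosome 16 had 0.485 (44). Chromosome 1 held 18.9% of the members, against 16.8% of the 2116 tall serum peaks, 9.99% of all serum and 11.1% of all starved peaks under 1000 bp. Chromosome 4 held 6.97% of the members (65), against 6.002% of the tall serum peaks, 3.06% of serum and 7.03% of starved peaks. Chromosome 13 held 6.76% of the members and 6.05% of the tall serum peaks. Chromosomes 2, 7 and 16 held smaller shares of the members (9.76%, 7.62% and 4.72%) than of the tall serum peaks (12.9%, 8.84% and 6.24%). Neighbouring members are not independent, so the intervals are too narrow.

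The excess on chromosomes 1 and 13 came from single stretches. On chromosome 1, 92 of the 176 members lay in the 3 Mb that follow the 180 Mb position, and the other 84 gave 0.300 per Mb (interval 0.240 to 0.372). On chromosome 13, 29 of 63 lay between 33 and 34 Mb, and the other 34 gave 0.301 per Mb (interval 0.208 to 0.420). The fullest window of 1 Mb, the first of that stretch, held 49 members out of 79 tall serum peaks. Their median serum background was 28.96 times the lowest, and their highest serum fold enrichment was 3.01. The chromosome 13 window had a median serum background of 38.4 times the lowest and a highest serum fold enrichment of 3.40. Outside the stretches the median serum fold enrichment of members was 4.08 on chromosome 1 and 4.56 on chromosome 13. Smaller gatherings were chr7:22000001-23000000 with 14 members, chr16:21000001-22000000 with 12 and chr7:1-1000000 with 11. These windows held 40, 53 and 40 tall serum peaks, in that order. In each, members were a smaller share of the tall serum peaks than the 44.0% over all 2116.

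**Figure D5:**
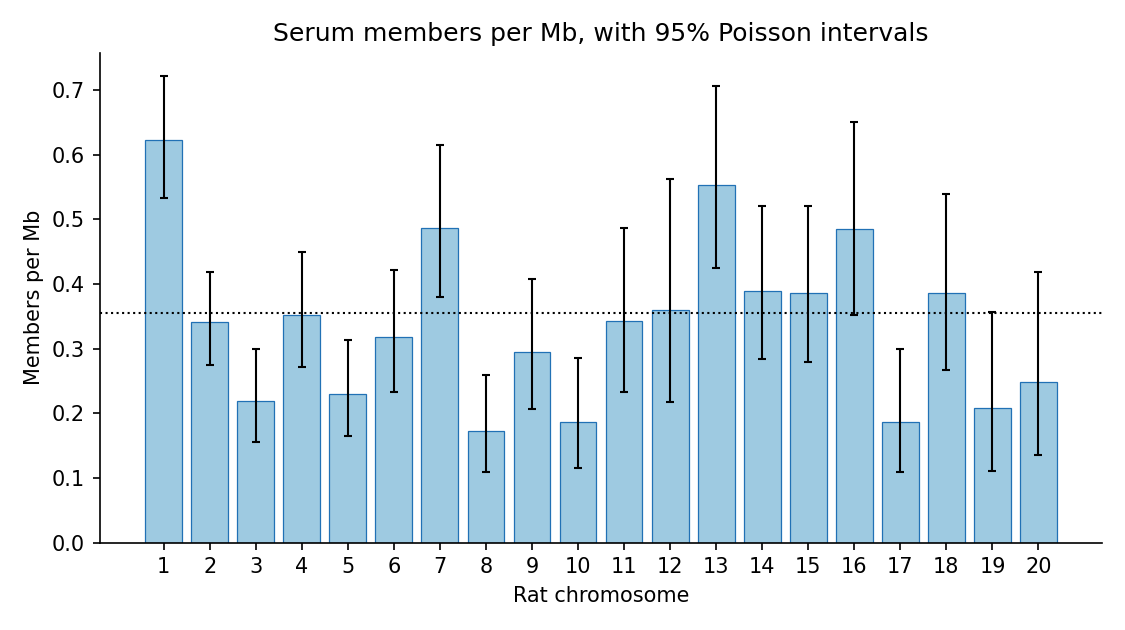
Serum members per Mb on rat chromosomes 1 to 20 (bars from 0), with exact 95% Poisson intervals that cover counting error only. The dotted line marks 0.356 per Mb over all 20 chromosomes. Chromosome 1 is highest at 0.622 and chromosome 8 lowest at 0.173.

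Crowded members had higher backgrounds and lower enrichment than lone ones. Within 10 kb of another member lay 242 (26.0%, interval 23.2 to 28.9), and without serum backgrounds over 20 times the lowest the share was 11.8% (9.57 to 14.3). The 242 had a median serum background of 22.1 times the lowest and median fold enrichments of 1.88 in serum and 4.81 in starved. More than 1 Mb from any other lay 332 (35.6%), with a median serum background of 6.52 times the lowest and median fold enrichments of 4.12 and 10.9. The 358 between had 6.61 times, 3.67 and 9.57. The median ratio of starved to serum pileup was 0.225 for the crowded and 0.388 for the lone members. These comparisons were not tested, since the enrichment values belong to the lists that chose the members.

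Chains of 3 or more members, each within 10 kb of the next, numbered 34 and held 140 members, and 51 more chains held 2. Of the 34, 14 lay in the dense stretch of chromosome 1 and 6 on chromosome 13 between 33 and 34 Mb. The longest had 7 members each, at chr1:180896218-180913149 and chr1:180928297-180951851, with median serum backgrounds of 46.7 and 44.2 times the lowest. The highest median background, 79.3 times, belonged to 3 members at chr18:38414175-38418170. In 33 of the 34 chains the median serum background was between 12.5 and 79.3 times the lowest and the median serum fold enrichment between 1.32 and 2.56. The remaining chain was that at the end of chromosome 1 (chr1:282142889-282148193), with 1.09 times the lowest and 11.8-fold.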

How the data were processed

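The data were 2 deposited peak lists, 1 per condition, from 4 rat libraries. Per the submitters' processing notes, the tools were FastQC, STAR 2.5.3a and MACS2 2.1.1 and the build was Rnor_6.0. For options, library scaling and duplicate or multiply mapped reads, which can all change heights and backgrounds, the settings were not given in the sources used here. Per the file headers, each peak has a length, a fold enrichment (ratio), a p-value, a q-value named FDR, and a pileup signal, all the authors' values. Lists were assigned by the prefix of their peak names, which matches the library titles.

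Background was computed as (pileup + 1) / fold − 1. Overlaps were found on 1-based positions. Shares have exact 95% binomial, single pileups exact Poisson and pileup ratios exact conditional binomial intervals. They cover counting error only. Where stacked fragments are copies, the intervals of pileups and ratios are too narrow. Read totals were not used. The code was tested on simulated data. Python 3.11.15, numpy 2.4.6, pandas 2.3.3, scipy 1.17.1 and matplotlib 3.10.9 were used.

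Members and limits were chosen with earlier results of these data known. Peaks named singly were the tallest in each list, the extremes of the pileup ratio, the most enriched in both, those of low background, those beside the limit and dense chains. The widest background gaps, the single shortest overlap, the full set of 17 low-background pairs, the background steps and the background-corrected ratio were chosen after the values were seen. Genes, sequence and motifs were not analysed here, since no Rnor_6.0 genome or annotation was used.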

Additional observations from a re-analysis of the deposited data

Results flagged for a closer look

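Pairs that met the same limits on pileup, length and overlap also occurred outside chromosomes 1 to 20, in sequences the comparisons above did not use. No level was predicted for these sequences, so the counts are a description. The X chromosome held 48 such serum peaks out of 144 tall ones (33.3%), with serum pileups of 30 to 76, starved pileups of 8 to 37 and a median serum background of 6.21 times the lowest. Unplaced scaffolds and the mitochondrial genome together held 48 of 104 (46.2%), with serum pileups of 30 to 262 and starved pileups of 8 to 61. The Y chromosome held 4 of 9, with serum pileups of 30 to 37 and starved pileups of 9 to 18. The share on chromosomes 1 to 20 was 44.0%.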

How the results depend on the processing

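No paired analysis was possible because a single precipitated library stands for each condition, and for the same reason no library could be left out. Of 52 alternative values for 8 results, 33 stayed within 1.5 times the count or within the interval of the reported value. The 932 members became 505 at a starved pileup of at least 16, 574 at a serum pileup of at least 40, 444 under 600 bp and 1718 with no limit on length, which follows from how each rule selects. The median starved pileup (16) was 16.5 with 50% of both peaks overlapping, 21 at a starved pileup of at least 16 and 18 at a serum pileup of at least 40. The median distance between midpoints (78 bp) was 52 bp with 50% overlap, 64 at a starved pileup of at least 16, 50.5 under 600 bp and 151.5 with no length limit. The median share of the shorter peak in the overlap (100%) was 97.5% under 600 bp. With raised background set at over 5 times the lowest, 75.4% of members had it in serum and 73.0% in starved.

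The alternatives that follow were chosen after seeing the data. The median pileup ratio (0.353) was 0.488 with background taken off, 0.385 without serum backgrounds over 20 times the lowest and 0.370 without the dense stretch of chromosome 1. The share of members within 10 kb of another (26.0%) was 11.8% and 19.5% under the last 2 of these. For the changes in distance, overlap and ratio the cause was not tested.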
